A study of Rattus norvegicus with 19 samples.

Results

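Genes for the mitochondrial ribosome and for protein import into mitochondria were examined in the retina of non-diabetic, diabetic and insulin-treated diabetic rats. Members were the probes whose annotated symbol begins with Mrpl, Mrps, Timm or Tomm followed by a digit. The array carried 76 such genes, each with 1 probe, and 72 of them counted as detected, of 7345 genes in all (a group qualified a probe when each of its arrays had a detection p under 0.05). These were 36 of 38 Mrpl genes, 20 of 22 Mrps genes, 11 of 11 Timm genes and 5 of 5 Tomm genes. Of the 72, 71 were detected on all 19 arrays. The exception was Timm44, which passed through the STZ group alone, where its highest detection p was 0.0497, and was detected on 5 of 7 Control and 5 of 7 STZ + insulin arrays. Just outside the threshold lay Mrpl14, detected on 4 arrays of each group. Mrps15, Mrps31 and Mrpl30 were the other genes left out.

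All rats were male Sprague-Dawley, and whole retinas with the pigment epithelium were taken after removal of the lens. The Control group (n = 7) was injected with the vehicle alone. The STZ group (n = 5) was made diabetic with 65 mg/kg of streptozotocin, a toxin of the insulin-producing beta cells, so that it models insulin deficiency, and only rats with glucose above 250 mg/dL were kept. The STZ + insulin group (n = 7) received the same toxin and, from week 6, subcutaneous insulin pellets of 26 mg, and retinas of all groups were harvested 3 months after injection. According to the methods, arrays of poor quality had been removed from both groups given streptozotocin, and not every control array that the study names was analysed here. Each rat gave 1 Illumina RatRef-12 array, and every group was spread over both BeadChips, the slides that carry the arrays. Between 11239 and 11824 probes per array had a detection p under 0.05. Signals are on the log2 scale of the average-normalized intensity throughout, and a difference of 0.26 is a 1.2-fold change. All 3 groups entered 1 limma model, "adjusted p" stands for the Benjamini-Hochberg value across the 10718 detected probes, and a probe was called at an adjusted p under 0.05.

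Mitochondria keep a small genome of their own, and the few proteins it encodes, all of them subunits of the respiratory chain or ATP synthase, are made on a dedicated ribosome. The proteins of that ribosome are encoded in the nucleus, made in the cytosol and imported, as are nearly all other mitochondrial proteins. Import begins at the TOM complex of the outer membrane and continues through the TIM23 channel into the matrix or through the TIM22 complex into the inner membrane, with small TIM chaperones guarding proteins on the way. The retina is rich in mitochondria, most of all in the inner segments of photoreceptors.

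The retina markers were high in every group: 10 of 11 on the array were detected, with a mean of 11.4 to 11.8 per array, and Grm6, a bipolar cell receptor, was not detected. The lens genes on the array, 10 of 10 detected, varied far more. Their mean per array ran from 6.60 to 11.04 in Control (median 9.85), from 8.41 to 12.6 in STZ (median 11.3) and from 6.09 to 9.56 in STZ + insulin (median 7.80), and 8 of 10 were lower in STZ + insulin than in STZ at an adjusted p. For the pigment epithelium, 6 of 7 genes on the array were detected (Tyr was not). Their means were 7.13 to 8.56 in Control (median 8.13), 6.69 to 8.13 in STZ (median 7.15) and 6.33 to 8.10 in STZ + insulin (median 7.19). At an unadjusted limma p under 0.05, 3 of 6 were lower in STZ than in Control, against 15.5% of all detected probes. Between STZ + insulin and Control 2 of 6 were lower, against 6.1%, and 0 were higher in either comparison. Of blood genes 2 of 4 were detected, with means of 9.70 to 12.3 over all arrays, of leukocyte and microglial genes 1 of 5 (7.10 to 9.16) and of skeletal muscle genes 2 of 4 (5.62 to 6.49), and 0 probes of these lists or of the pigment epithelium were called by limma in any comparison, while up to 3 of a list passed the unadjusted threshold. Rlbp1 stands in both the retina and the pigment epithelium lists. STZ 2 and STZ 3 had the lowest array weights (0.340 and 0.336), limma's estimate of how reliable each array is. In such bulk tissue, fewer cells of a type cannot be told apart from less RNA per cell.

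Averaged over the 72 members, the signal per array was 9.07 to 9.18 in Control (median 9.10) and 9.09 to 9.16 in STZ + insulin (median 9.11). In STZ it was 8.97, 9.12, 8.93, 8.98 and 8.997. Thus 4 of 5 STZ arrays lay below every array of the other groups, while STZ 2 lay within their range.

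**Figure D1:**
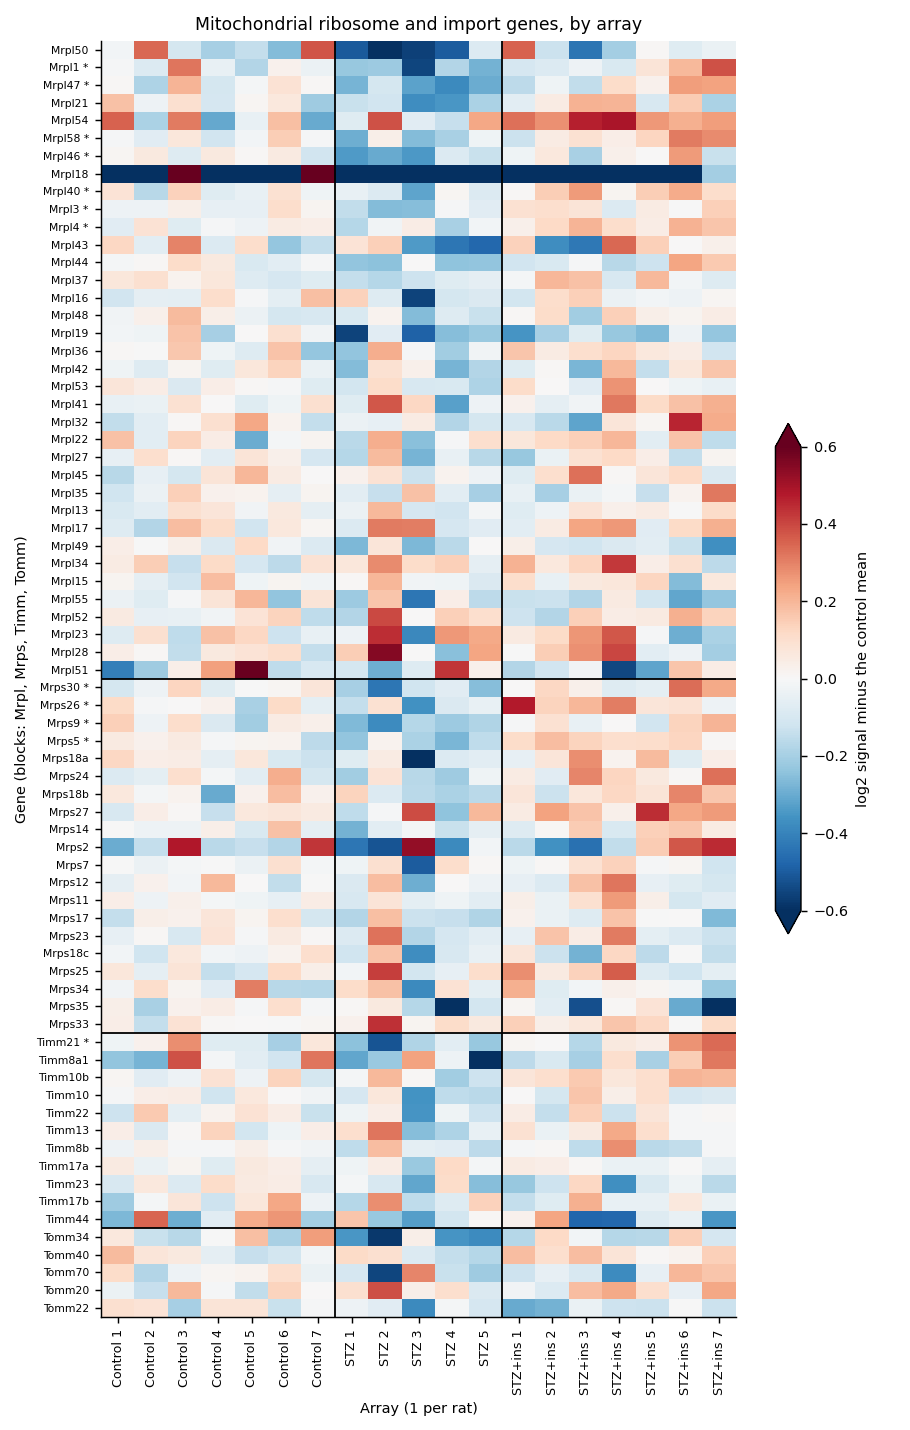
Log2 signal of each of the 72 members (rows, in blocks Mrpl, Mrps, Timm and Tomm) on each of the 19 arrays (columns), minus the gene's mean in the 7 Control arrays; the colour scale ends at -0.6 and 0.6, and an asterisk marks genes called between STZ + insulin and STZ. More genes are blue (below the control mean) in STZ than in STZ + insulin, STZ 2 differs from the other STZ arrays in many genes, and the dark row of Mrpl18 comes from its high signal on Control 3 and Control 7.

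Untreated diabetes was first compared with control. None of the members passed the adjusted threshold (0 of 72, against 2.79% of all detected probes, 0.886% higher and 1.9% lower), although their differences lay mostly on 1 side. Of the 72, 59 (81.9%) were lower and 13 higher in STZ than in Control, where 64.7% of all detected probes were lower, with a median difference of -0.097 against -0.067 over all detected probes. At an unadjusted p under 0.05, 13 members (18.1%) were lower and 0 higher, where 15.5% of all detected probes were lower and 5.36% higher. Without STZ 3 the median of the members was -0.052 and that of all probes -0.0815, and without STZ 2 they were -0.113 and -0.0485. The groups overlapped for every member, whereas 2.2% of all detected probes were lower and 0.774% higher without overlap.

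**Figure D2:**
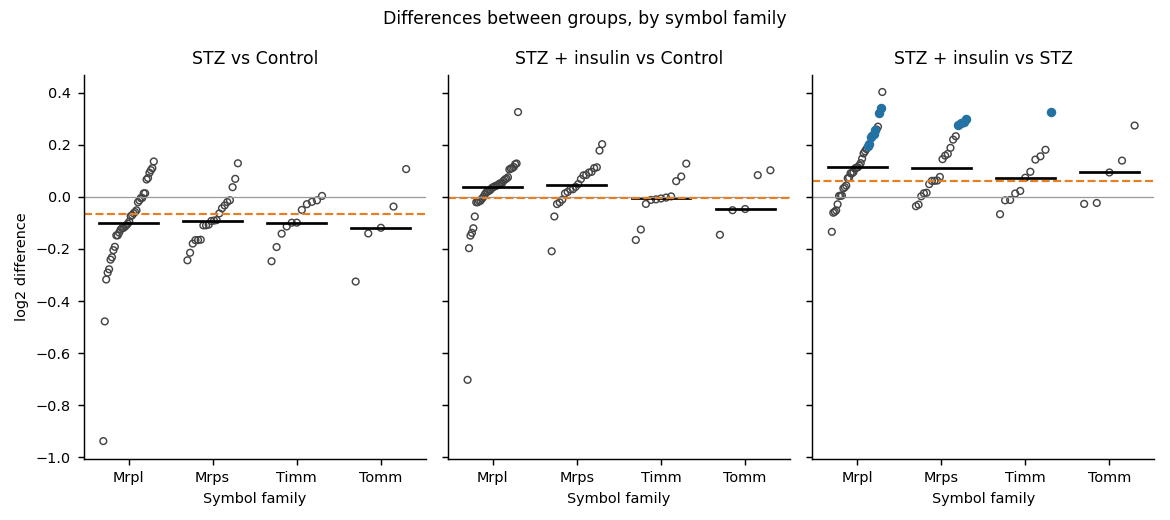
Log2 difference of each member (circles; filled where adjusted p is under 0.05) in the 3 comparisons, by symbol family. Black bars are family medians and the dashed line is the median of all 10718 detected probes; filled circles appear only between STZ + insulin and STZ, 7 Mrpl, 4 Mrps and 1 Timm, and the lowest circle in both comparisons with Control is Mrpl18.

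The members with the smallest p between STZ and Control were proteins of the ribosome. Mrpl19, a large subunit protein with a bacterial counterpart, had signals of 6.63 to 7.00 in Control (median 6.81) and of 6.27, 6.76, 6.34, 6.57 and 6.61 in STZ. Its difference was -0.32 (standard error 0.09, adjusted p = 0.0546), and 5 of 5 diabetic rats lay under the control mean. Mrpl50 is a large subunit protein without a bacterial counterpart. It ran from 7.81 to 8.45 in Control (median 7.96) and stood at 7.56, 7.32, 7.51, 7.57 and 7.99 in STZ, so that 4 of 5 STZ arrays lay under all controls (difference -0.48, standard error 0.14, adjusted p = 0.0648). Mrps9, a small subunit protein, differed by -0.24 (adjusted p = 0.0703) and Mrpl47, a large subunit protein near the exit of the nascent chain, by -0.28 (adjusted p = 0.077). Among the import genes, Tomm34, a cytosolic cofactor that binds chaperones, differed by -0.33 (standard error 0.10, adjusted p = 0.0831). Its STZ signals were 6.60, 6.38, 6.99, 6.60 and 6.58 against 6.76 to 7.20 in Control (median 6.95), and STZ 3 alone reached the level of the controls.

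The study used other thresholds, namely a fold change over 1.2 together with an unadjusted p under 0.05. They were passed by 5 members (6.94%), all lower: Mrpl19, Mrpl50, Mrpl1, Mrpl47 and Tomm34. Of all detected probes, 10.2% were lower and 4.15% higher by these thresholds. The study sorted such genes by their behaviour under insulin. Here both thresholds were applied to every comparison. Mrpl50, Mrpl1, Mrpl47 and Tomm34 then met its definition of Normalized (different between STZ + insulin and STZ, and not between STZ + insulin and Control), and Mrpl19 that of Partially Normalized (different in neither). These were 5.56% and 1.39% of the members, against 9.14% and 4.16% of all detected probes. In the group Not Normalized, where the difference from Control remains, and in the group Inverted there were 0 members, against 0.784% and 0.224% of all detected probes. Between STZ + insulin and Control, Mrpl19 missed only the fold threshold (1.15-fold, limma unadjusted p = 0.0226). By p alone in that comparison it would be Not Normalized.

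Members with higher signals in STZ than in Control did not pass the test. The smallest p values among them belonged to Mrps33 (0.13, adjusted p = 0.312), Mrpl34 (0.11, adjusted p = 0.502), Tomm20 (0.11, adjusted p = 0.509) and Mrpl28 (0.14, adjusted p = 0.533). Tomm20 is the receptor that first binds the presequence of imported proteins. Its STZ signals were 11.18, 11.47, 11.11, 11.18 and 10.99, against 10.93 to 11.27 in Control (median 11.07), and STZ 2 was the only array above the controls.

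Insulin-treated and untreated diabetic rats were compared next. Of 72 members, 12 (16.7%) were higher in STZ + insulin and 0 lower, against 6.49% of all detected probes called higher and 3.93% lower. They were 7 of 36 Mrpl genes, 4 of 20 Mrps genes, 1 of 11 Timm genes and 0 of 5 Tomm genes, and for each of the 12 all 7 STZ + insulin arrays lay above the STZ mean. Their differences were small, from 0.20 for Mrpl4 and Mrpl3 to 0.34 for Mrpl1, or 1.15-fold to 1.27-fold. Over all members, 60 (83.3%) were higher and 12 lower, where 61.3% of all detected probes were higher, with a median of 0.103 against 0.060 over all detected probes. The unadjusted threshold was passed by 22 higher (30.6%) and 0 lower, where 17.7% of all detected probes were higher and 9.41% lower. The study's thresholds were passed by 10 higher (13.9%) and 0 lower, where 11.9% of all detected probes were higher and 7.65% lower. In only 2 members, Mrpl1 and Mrps9, did the groups not overlap (2.78%, against 2.21% of all detected probes higher and 1.52% lower without overlap).

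**Figure D3:**
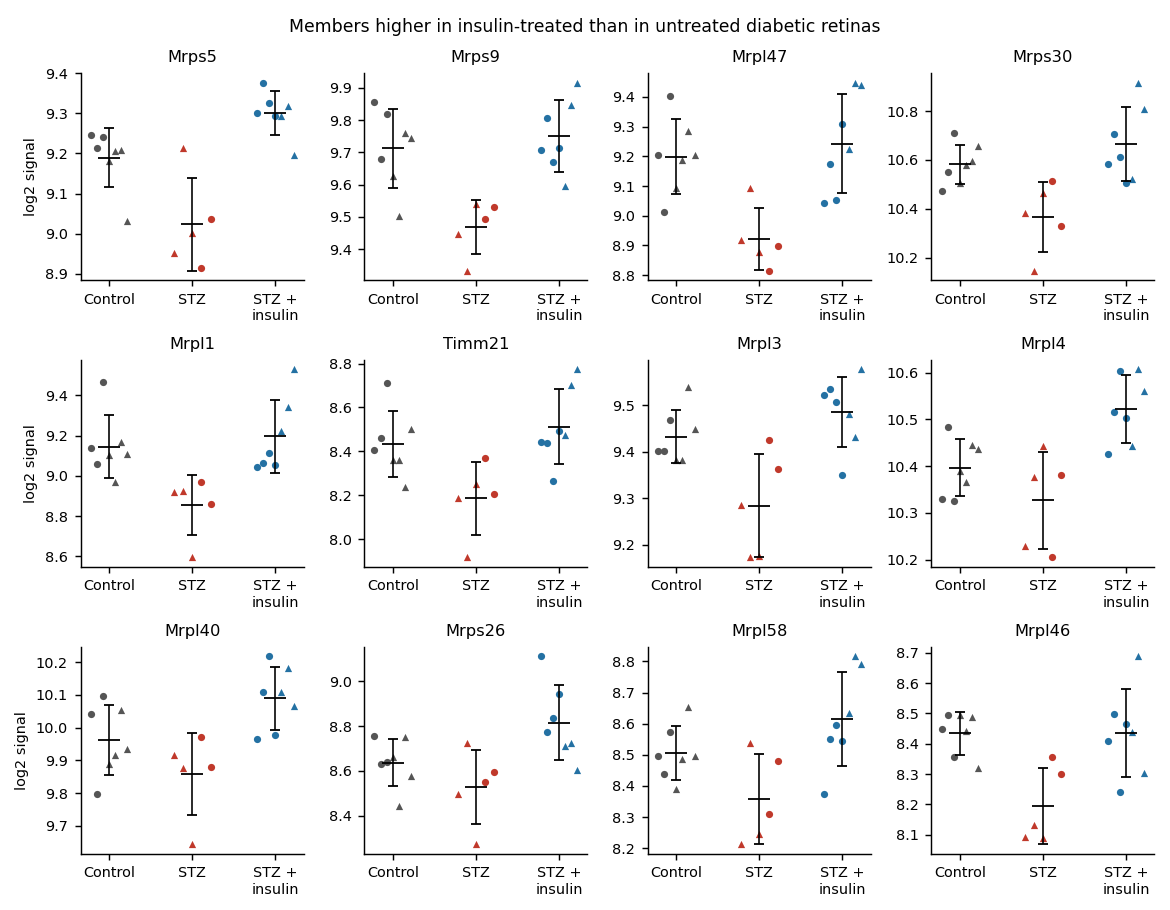
Log2 signal per rat of the 12 members called between STZ + insulin and STZ, in order of p; circles are BeadChip 1, triangles BeadChip 2, and the bar and whiskers are the group mean and SD. The vertical axes differ between panels and do not start at 0. For Mrps9 and Mrpl1 every STZ + insulin array lies above every STZ array, and in each panel the Control and STZ + insulin groups overlap.

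Mrps5, a small subunit protein beside the channel through which mRNA enters, had the smallest p. Its signals were 9.20 to 9.38 in STZ + insulin (median 9.30) and 8.95, 9.21, 9.002, 8.92 and 9.04 in STZ, so that only STZ 2 reached the lowest treated array. The difference was 0.28 (standard error 0.06, adjusted p = 0.0119). Controls ran from 9.03 to 9.25 (median 9.21), between the other groups in their mean.

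Mrps9 ran from 9.60 to 9.92 in STZ + insulin (median 9.71) and stood at 9.45, 9.33, 9.54, 9.49 and 9.53 in STZ. Every treated array was above every untreated one, and the difference was 0.28 (standard error 0.07, adjusted p = 0.0217). Mrpl1, a protein of the mobile stalk of the large subunit, ran from 9.05 to 9.53 in STZ + insulin (median 9.12) against 8.92, 8.93, 8.60, 8.97 and 8.86 in STZ. These groups did not overlap either, although STZ 3 was well below the other STZ arrays (difference 0.34, standard error 0.10, adjusted p = 0.034). The difference was 0.16 on BeadChip 1 and 0.55 on BeadChip 2.

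Mrpl47 ran from 9.04 to 9.45 in STZ + insulin (median 9.23) and stood at 8.92, 9.09, 8.88, 8.82 and 8.90 in STZ. The difference was 0.32 (standard error 0.09, adjusted p = 0.0252), and STZ 2 was again the array that overlapped. Mrps30 keeps the name of a small subunit protein but lies in the large subunit in mammals. It ran from 10.51 to 10.92 in STZ + insulin (median 10.61) and stood at 10.38, 10.15, 10.46, 10.51 and 10.33 in STZ (difference 0.30, standard error 0.08, adjusted p = 0.0269). Here STZ 4 touched the treated range and STZ 2 was the lowest array.

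Timm21 was the import gene among the 12. It is the subunit of the TIM23 channel that contacts the TOM complex and the respiratory chain. Its signals were 8.26 to 8.77 in STZ + insulin (median 8.48), 8.19, 7.92, 8.25, 8.37 and 8.21 in STZ, and 8.24 to 8.71 in Control (median 8.41). The difference between treated and untreated rats was 0.33 (standard error 0.10, adjusted p = 0.0398), but it was 0.12 on BeadChip 1 and 0.53 on BeadChip 2.

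The other 6 genes lay nearer the threshold, with adjusted p from 0.0431 to 0.0497. Mrpl3 and Mrpl4 are conserved proteins of the large subunit, at 0.20 each, and Mrpl40 and Mrpl46 are proteins it gained in mitochondria, at 0.23 and 0.24. Mrps26, a mitochondrial addition to the small subunit, differed by 0.29. Mrpl58 differed by 0.26, and is a peptidyl-tRNA hydrolase built into the large subunit that frees stalled chains. Mrpl50 had a larger difference than these (0.40) but a wider error (standard error 0.14, adjusted p = 0.0698).

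The count of 12 depended on the fit. With the mean of the lens genes per array as a covariate it was 0, and calls among all detected probes went from 1117 to 2, while the median of the members moved from 0.103 to 0.082. The count was 4 of 72 without STZ 2 and STZ 3, where 4.81% of all detected probes were called in either direction. It was 8 with the BeadChip as a block and 4 after quantile normalization, where 9.68% were called in each case. After quantile normalization the share of members called was thus below that of all detected probes. Each of the 12 was higher on both BeadChips, at 0.075 (Mrpl46) to 0.35 (Mrps5) on BeadChip 1 and at 0.18 (Mrps26) to 0.55 (Mrpl1) on BeadChip 2. As the 12 were chosen from these same arrays, this is no separate test of them. Of all 72 members, 61 were higher on BeadChip 1 alone and 53 on BeadChip 2 alone, with 0 and 1 called (0.0746% and 3.31% of all detected probes). On BeadChip 1 alone the median of the members was 0.136, against 0.0171 over all detected probes. On BeadChip 2 alone it was 0.0994 against 0.0981, so that there the members hardly differed from all probes. The part of the lens signal in the differences between STZ + insulin and STZ was not tested.

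**Figure D4:**
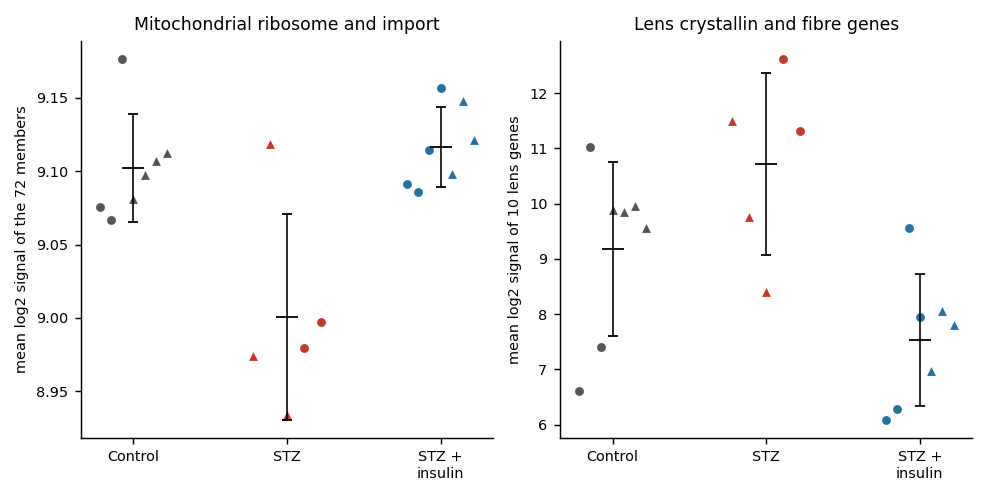
Mean log2 signal per rat of the 72 members (left) and of the 10 lens genes (right); circles are BeadChip 1, triangles BeadChip 2, and the bar and whiskers are the group mean and SD. In the left panel 4 of 5 STZ arrays lie below all others; in the right panel the STZ + insulin arrays run from 6.09 to 9.56 and the STZ arrays from 8.41 to 12.6, and the vertical axes do not start at 0.

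Promoter sequences of the members were read for motifs that some of these genes share. Windows from 250 bases before to 50 bases after the transcription start were found for 60 of the 72 members, including all 12 that were called, in RefSeq's annotation of GRCr8. They were searched on both strands for the motifs of 3 factors that are known regulators of nuclear genes for mitochondria. These were CCGGAAG, the core of sites for ETS factors such as GABP, AAGATGGC, the site of YY1, and the palindrome of NRF1, which is spelled out in capitals in the last windows shown. The ETS motif was present in 21 members (35%), against 18.4% of the 6158 tested genes with a window and 9.22% of all 27457 genes with one. The YY1 motif was present in 13 members (21.7%, against 5.96% and 3.44%) and the NRF1 motif in 4 members (6.67%, against 1.92% and 0.932%). Of the 60 members with a window, 31 had at least 1 of the 3 motifs, so that many had none. The ETS and YY1 motifs share 3 letters and can overlap, but no matches to different motifs overlapped in any member (0). The YY1 motif contains the letters ATG, and where translation starts in these windows was not looked up. Whether any match is bound by its factor was not tested. Among the 12 called members, the ETS motif was present in 4 (33.3%, against 35% of the members) and the YY1 motif in 2 (16.7%, against 21.7%). The NRF1 motif was present in 0 of them, so that 6 had none of the 3. Their matches are printed below, with 10 bases on each side and the motif in capitals, on the strand of the gene; where the letters are CTTCCGG the ETS motif lies on the opposite strand.
Mrpl3 (chr8:114548970-114548996, plus strand): gagaaacggaCCGGAAGtggctcagct
Mrpl4 (chr8:27815761-27815787, plus strand): cattggtttgCTTCCGGagcccgctct
Mrpl58 (chr10:101145312-101145338, plus strand): agagtgcgcaCCGGAAGcggtcctggg
Mrps26 (chr3:138222331-138222357, plus strand): tcctcgaccaCTTCCGGacagggcgca
Mrpl46 (chr1:142116989-142117016, minus strand): ggaagacggaAAGATGGCggcgcccata
Mrps30 (chr2:52195869-52195896, minus strand): gcggaggacaAAGATGGCggctgccagg

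The match began at -20 from the transcription start in Mrpl58 and at 1 to 25 within the transcript in the other 5 genes. Of the members that hold the NRF1 palindrome, none was called in any comparison (0 of 4). Between STZ + insulin and STZ, 16.7% of all members and 10.4% of all detected probes were called, so a count over 4 genes shows little. The 4 genes are Mrpl17, Mrpl32, Mrpl44 and Mrps18b, and 2 of their windows are shown as examples.
Mrpl17 (chr1:169575735-169575764, minus strand): aggctctgatGCGCATGCGCaagcacccct
Mrpl32 (chr17:55260579-55260608, plus strand): tttgacctgtGCGCATGCGCagggaacctg

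Insulin-treated diabetic and control rats were then compared. Again 0 of 72 members were called, against 0.00933% of all detected probes (1 probe, lower; 0.0% higher). At an unadjusted p, 4 members were higher and 1 lower (5.56% and 1.39%, against 2.88% and 6.1% of all detected probes), and the median was 0.029 against -0.0046 over all probes. The groups overlapped for every member, where 0.0746% of all detected probes were higher and 0.14% lower without overlap. Mrpl54, a mitochondrial protein of the large subunit, was the only member past the study's thresholds (1.39%), which 1.43% of all detected probes passed upwards and 4.68% downwards. Its signals were 9.57 to 9.84 in STZ + insulin (median 9.62) and 9.05 to 9.71 in Control (median 9.31), and the Control arrays were spread widely. The difference was 0.33 (standard error 0.11, unadjusted p = 0.00969, adjusted p = 0.304), and 7 of 7 treated rats lay above the control mean. Mrps27, an RNA-binding protein of the small subunit, differed by 0.20 (unadjusted p = 0.035), Mrpl4 by 0.13 (unadjusted p = 0.0348) and Mrps26 by 0.18 (unadjusted p = 0.0439). The lower one was Mrpl19, at -0.20 (unadjusted p = 0.0226, adjusted p = 0.42), with signals of 6.47 to 6.80 in STZ + insulin (median 6.60). Thus for Mrpl19 the treated rats stood between the STZ and Control groups in their mean, and 7 of 7 lay below the control mean.

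Of the 16 import genes, Timm21 was the only one called, and Tomm34 the only other one past the study's thresholds (0.27 between STZ + insulin and STZ, adjusted p = 0.0942). Timm23, which forms the channel of the inner membrane with Timm17, differed by -0.11 between STZ and Control (adjusted p = 0.47) and by -0.13 between STZ + insulin and Control (adjusted p = 0.719), where 6 of 7 treated rats lay under the control mean. The paralogues Timm17a and Timm17b had differences between -0.019 and 0.013 in the 3 comparisons. For the effect of treatment in diabetic rats the 95% interval was -0.11 to 0.14 for Timm17a and -0.20 to 0.18 for Timm17b. Timm17a ran from 10.33 to 10.46 in Control (median 10.42) and from 10.35 to 10.45 in STZ + insulin (median 10.40), and STZ arrays stood at 10.38, 10.45, 10.18, 10.52 and 10.39. The small TIM chaperones, which escort hydrophobic proteins across the intermembrane space, were 5 genes (Timm8a1, Timm8b, Timm10, Timm10b and Timm13), and 1 of them was higher in STZ + insulin than in STZ at an unadjusted p. This was Timm10b (0.16, unadjusted p = 0.035, adjusted p = 0.148). Tomm40, the channel of the outer membrane, differed by -0.037 between STZ and Control (adjusted p = 0.802) and by 0.14 between STZ + insulin and STZ (adjusted p = 0.22). Tomm70, the receptor for carrier proteins, differed by -0.14 (adjusted p = 0.507) and 0.094 (adjusted p = 0.641), with STZ signals as far apart as 9.55 (STZ 2) and 10.39 (STZ 3). Tomm22, the central receptor, differed by -0.12 (adjusted p = 0.413) and -0.027 (adjusted p = 0.859).

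Mrpl18, a large subunit protein, had an unusual distribution. Its Control signals were 6.74, 6.71, 10.02, 6.79, 6.97, 7.09 and 9.79, so that Control 3 and Control 7 stood apart from the rest of their group. The other 17 arrays ran from 6.60 to 7.53, and the gap between them and the lower of the 2 high arrays was 2.27 on the log2 scale. The 2 arrays were on different BeadChips. Over all 10718 detected probes, Mrpl18 was the 1 probe that was more than 1 higher on these 2 arrays than on all others. The next such gap was 0.37. Probes lower on these 2 arrays were not counted. Its neighbour on chromosome 1 in RefSeq's annotation, Tcp1, had 11.80 and 11.63 on these arrays within a control range of 11.54 to 11.80, and Acat2, nearby on the same chromosome, had 10.52 and 10.44 within 10.26 to 10.52. With these values Mrpl18 differed by -0.94 between STZ and Control (standard error 0.50, adjusted p = 0.295), the largest difference of any member and not a called one. Without both arrays it differed by -0.067 (adjusted p = 0.84), and its difference between STZ + insulin and Control turned from -0.70 to 0.17 (adjusted p = 0.841). Without both arrays the count called between STZ + insulin and STZ was 6 of 72, where 8.99% of all detected probes were called in either direction.

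**Figure D5:**
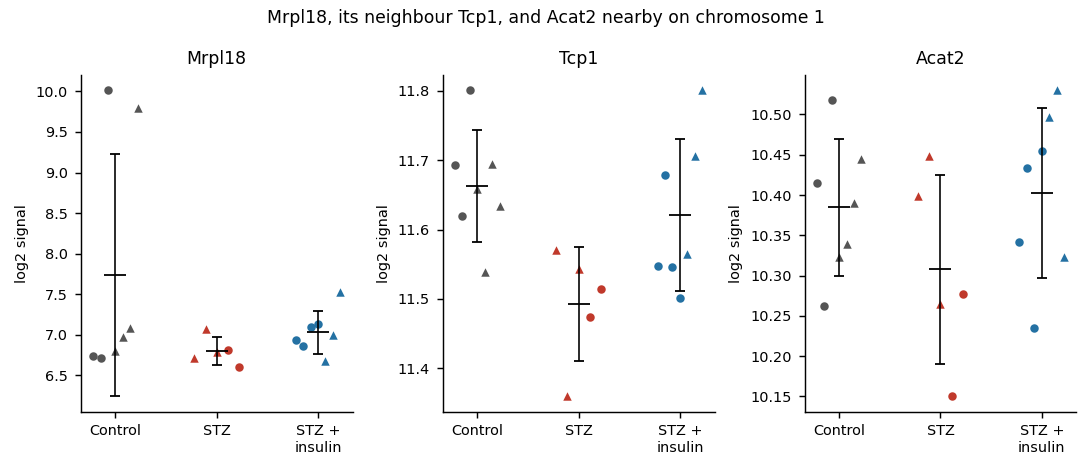
Log2 signal per rat of Mrpl18, of its neighbour Tcp1 and of Acat2; circles are BeadChip 1, triangles BeadChip 2, and the bar and whiskers are the group mean and SD. In the Mrpl18 panel Control 3 (10.02) and Control 7 (9.79) lie far above the other 17 arrays, and neither gene beside it shows such a gap; the vertical axes differ and do not start at 0.

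The genes that make and assemble the mitochondrial ribosome were examined beside its proteins, from lists of translation factors, assembly factors, genes for the maintenance and transcription of mitochondrial DNA, and other import genes. Of 17 detected assembly genes, 4 (23.5%) were lower in STZ than in Control at an adjusted p, where 1.9% of all detected probes were, and 0 were higher. They were Mtg2, a GTPase that helps to mature the large subunit (-0.33, adjusted p = 0.0396), Mrm3, which methylates the large-subunit rRNA (-0.45, adjusted p = 0.0398), Fastkd2, which binds that rRNA (-0.50, adjusted p = 0.0439), and Rpusd4, which converts a uridine of it to pseudouridine (-0.43, adjusted p = 0.0451). Between STZ + insulin and STZ the count was 4 higher (23.5%, against 6.49% of all detected probes) and 0 lower, and 17 of 17 had a positive difference (median 0.23).

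Fastkd2 ran from 7.67 to 7.92 in Control (median 7.77) and stood at 7.11, 6.74, 7.52, 7.63 and 7.44 in STZ, with every STZ array below every control. In STZ + insulin it ran from 7.52 to 8.16 (median 7.78), a difference of 0.53 from STZ (standard error 0.13, adjusted p = 0.0169). Rpusd4 stood at 7.87, 7.80, 7.74, 7.89 and 8.38 in STZ, against 8.10 to 8.71 in Control (median 8.34) and 8.26 to 8.58 in STZ + insulin (median 8.56). Only STZ 5 overlapped the other groups.

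Of 17 genes for mitochondrial DNA maintenance and transcription, 1 was lower in STZ than in Control (5.88%, against 1.9% of all detected probes), Tefm, the elongation factor of the mitochondrial RNA polymerase. It ran from 7.64 to 8.01 in Control (median 7.84) and stood at 7.54, 7.39, 7.32, 7.39 and 7.61 in STZ, with no overlap (difference -0.39, standard error 0.09, adjusted p = 0.0339). Mterf1, a transcription termination factor, differed by -0.28 (adjusted p = 0.0932). Between STZ + insulin and STZ, 5 of the 17 were higher (29.4%, against 6.49%) and 0 lower. They were Twnk, the mitochondrial DNA helicase (0.63, adjusted p = 0.00795), Tefm (0.41, adjusted p = 0.0122), Pprc1, a coactivator of nuclear genes for mitochondria (0.55, adjusted p = 0.0147), Polg, the mitochondrial DNA polymerase (0.38, adjusted p = 0.0234), and Mterf1 (0.33, adjusted p = 0.0301). Twnk ran from 8.54 to 8.94 in STZ + insulin (median 8.82) and stood at 8.16, 8.25, 8.49, 7.59 and 8.19 in STZ, so that the groups did not overlap.

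Of 8 translation factors, 1 was lower in STZ than in Control (12.5%, against 1.9% of all detected probes) and 2 were higher in STZ + insulin than in STZ (25%, against 6.49%). Qrsl1, a subunit of the enzyme that makes the glutamine tRNA of mitochondria, differed by -0.41 (adjusted p = 0.046) and by 0.48 (adjusted p = 0.0133) in turn. Mtrf1l, a release factor, differed by -0.20 (adjusted p = 0.122) and 0.25 (adjusted p = 0.0318). Mtfmt, which formylates the initiator tRNA, and Gatc, a further subunit of the enzyme to which Qrsl1 belongs, had lower signals in STZ + insulin than in STZ (-0.22 and -0.17, adjusted p = 0.0962 and 0.148) and passed the unadjusted threshold. Of 15 other import genes, 1 was lower in STZ than in Control (6.67%, against 1.9% of all detected probes) and 1 higher in STZ + insulin than in STZ (6.67%, against 6.49%). Both calls were of Chchd4, which forms disulfide bonds in proteins entering the intermembrane space (-0.27, adjusted p = 0.0444, and 0.32, adjusted p = 0.0103). Pmpcb, a subunit of the peptidase that cuts off presequences, differed by -0.12 (adjusted p = 0.196) and 0.14 (adjusted p = 0.097). Of 3 ribosomal proteins with other symbols 0 were called, where 2.79% of all detected probes were between STZ and Control and 10.4% between STZ + insulin and STZ. Chchd1 differed by -0.16 (adjusted p = 0.253) and Gadd45gip1 by -0.073 (adjusted p = 0.749) between STZ and Control. The count of 4 assembly genes lower in STZ than in Control ranged from 0 to 4 over the other settings of the fit and from 0 to 5 when each array was left out in turn, and the median of this list stayed below 0 throughout, between -0.19 and -0.093. The calls of Tefm, Qrsl1 and Chchd4 between STZ and Control were likewise lost under some of the other settings, the lens covariate and each BeadChip alone among them, and when some single arrays were left out. The counts higher in STZ + insulin than in STZ reached 0 in each of these lists under at least 1 setting.

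Other genes for ribosomes and mitochondria had medians on the other side. Of 62 detected cytosolic ribosomal proteins, 48 (77.4%) had higher and 14 lower signals in STZ than in Control, where 35.3% of all detected probes were higher. Their median was 0.090 and 0 were called (4 higher and 2 lower at an unadjusted p). Of 57 nuclear genes of the respiratory chain and ATP synthase, which work beside the products of the mitochondrial ribosome, 38 (66.7%) had higher and 19 lower signals. Their median was 0.048 and 0 were called (3 higher and 1 lower at an unadjusted p). Of all detected probes, 0.886% were called higher and 1.9% lower, and 5.36% were higher and 15.5% lower at an unadjusted p. The medians of these lists between STZ + insulin and STZ were -0.0945 and -0.048, against 0.103 for the 72 members. With each array left out in turn or under the other settings, the median of the members was between -0.113 and -0.037 in the first comparison and that of the cytosolic ribosomal proteins between 0.0325 and 0.18. That of the respiratory chain genes lay between -0.022 and 0.10. Between STZ + insulin and STZ the cytosolic ribosomal proteins reached 0.0135 with the lens covariate, and the respiratory chain genes 0.047 on BeadChip 1 alone. These differences between lists were not tested.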

How the data were processed

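RNA from the retinas of 19 rats had been hybridised singly to Illumina RatRef-12 arrays. The authors averaged bead intensities, subtracted the background and scaled the arrays to a common mean in GenomeStudio (version 1.0.6 in the submitters' processing notes), and the average-normalized intensity was deposited untransformed, as was the non-normalized one. GenomeStudio's detection p-values against negative control probes were deposited with them. From the non-normalized table only the signals entered, which leaves 19 detection columns out. A further table held the same values (22517 of 22517 probes identical) and joined probes to the platform's gene symbols, which name 13259 probes. The study's methods state that arrays of poor quality were removed from the STZ and STZ + insulin groups beforehand.

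Signals under 10 were set to 10 and put on the log2 scale. limma 3.58.1 (R 4.3.3) fitted the group means without covariates; pandas 2.3.3, numpy 2.4.6, scipy 1.17.1 and matplotlib 3.10.9 served for tables and figures, and the fit was tested on simulated data. The settings varied were the floor (1 or 50), the detection threshold (0.01, or none), the normalization (quantile, neqc at offset 16, or median-centred non-normalized signals), the BeadChip or the replicate number as a block, each BeadChip alone, only the 2 groups compared, the methods' t-test, the lens mean as a covariate, the mean of a gene's probes and each array left out in turn. Leaving out the 2 arrays of lowest weight, or both controls with high Mrpl18, was tried later, with the values known. The members and lists were chosen with earlier results of these data known. Genes named by rule were those called, the 4 with the smallest p in each direction of each comparison, the brightest of each family, those in the study's lists, paralogue pairs and, of each other list, the 2 with the smallest p between STZ and Control; the remaining called genes of those lists, Mrpl18, Mrps35, Mrps2, Timm10b and genes near the detection limit were chosen after their values were seen. The number of arrays limits the precision. Rats were separate animals, so replicates are biological. qPCR and protein measurements were not analysed here.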

Additional observations from a re-analysis of the deposited data

Results flagged for a closer look

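The gap between an outermost array and its nearest neighbour was divided by the range of its set. Of 99 sets of values (each named member, and the mean of all 72, in each group), 10 had a ratio above Dixon's 95% critical value, where chance alone gives about 5% of sets. For Mrps33, a small subunit protein, Control 2 lay low at 10.45 (other controls 10.59 to 10.67) and STZ 2 lay high at 11.03 (other STZ arrays 10.60 to 10.70). Timm8b, a small TIM chaperone, was high on STZ + insulin 4 at 11.85, against 11.41 to 11.58. Mrpl1 was high on Control 3 at 9.47 (others 8.97 to 9.17) and Mrps5 low on Control 7 at 9.03 (others 9.18 to 9.25). Mrps18b was low on Control 4 at 10.68 (others 10.97 to 11.17) and Mrpl49 low on STZ + insulin 7 at 9.30 (others 9.53 to 9.71). STZ 3 was low for Tomm22 at 9.19 (others 9.48 to 9.57) and for Mrpl40 at 9.64 (others 9.88 to 9.97). The mean of the 72 members was highest on Control 3 at 9.18 (others 9.07 to 9.11). Mrpl18, at 10.02 on Control 3, enters this mean, and the mean without it was not computed. The median of the 72 was also highest on Control 3, at 9.35 (other controls 9.22 to 9.26). Both STZ arrays named here are those of lowest array weight.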

How the results depend on the processing

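The median difference of the members kept its sign in the 3 comparisons under every alternative. It moved by less than 0.0712, the SD of the member median between arrays of a group. That is a wide limit, larger than the median difference between STZ + insulin and Control (0.0291). Between STZ + insulin and STZ the median difference was 0.0487 after quantile normalization and 0.0472 with neqc, against 0.103. Its excess over all probes was 0.0124 and 0.0163, against 0.0423. Between STZ and Control the median difference was -0.038 and -0.0374, against -0.097. The count of 12 members called between STZ + insulin and STZ became 0 with the lens covariate and on BeadChip 1 alone, 1 on BeadChip 2 alone and with only the 2 groups compared, 2 by the methods' t-test, 4 after quantile normalization or without the 2 arrays of lowest weight, 5 with neqc, 6 without a detection filter or without both controls with high Mrpl18, and 7 with median-centred signals. These were all among the 12, except Timm10b, 1 of the 4 called without the 2 arrays of lowest weight. Mrpl21, Mrpl50 or Tomm34 joined the calls under some other settings. Of all detected probes, 10.4% were called in the main fit, 0.0187% with the lens covariate, and 0.0746% and 3.31% on BeadChips 1 and 2 alone. The share was 5.45% with only the 2 groups compared, 3.24% by the t-test, 9.68% after quantile normalization and 4.81% without the 2 arrays of lowest weight. It was 10.4% with neqc, 2.64% of all probes without a detection filter, 8.99% without both controls with high Mrpl18 and 10.8% with median-centred signals. With the replicate number as a block the count was 1 of 72, where 4.5% of all detected probes were called. Correlations between the deviations of same-numbered arrays ran from -0.24 to 0.27. They cannot decide whether the numbers pair the rats, because differently numbered arrays were not set beside them. With each array left out in turn the count ranged from 2 (without STZ + insulin 6) to 10. The share of all detected probes called ranged from 5.06% (without STZ 2) to 13.9% (without STZ 3). The count was 4 without STZ 2, STZ + insulin 5 or STZ + insulin 7, and 5 without STZ 1 or STZ + insulin 2. It was 6 without Control 1 or Control 4, and 7 without Control 2, Control 5, Control 6, Control 7, STZ 3 or STZ 4. Between STZ and Control the count was 2 with a floor of 50 and 1 with a detection p under 0.01, and 0 to 1 with arrays left out (1 without Control 4, STZ 2, STZ 3 or STZ 5). Of all detected probes, 2.87% were called with this floor and 4.19% with this detection p. The share was 2.34% without Control 4, 1.04% without STZ 2, 3.52% without STZ 3 and 3.28% without STZ 5. By the study's thresholds the count of members was 1 after quantile normalization, neqc or median-centring, 8 on BeadChip 1 alone, 3 with the replicate block, and 3 (without Control 3) to 6 with arrays left out. These thresholds gave, between STZ + insulin and STZ, 4, 2 and 5 members after quantile normalization, neqc and median-centring, and 8 to 12 with arrays left out. Between STZ + insulin and Control they gave 0 on BeadChip 1 alone, 3 on BeadChip 2 alone and 1 with any array left out. The share of higher against lower members moved with the scaling: between STZ and Control 27 of 72 were higher after quantile normalization or neqc and 13 without them, and between STZ + insulin and Control 59 were higher with median-centring and 45 without it.

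Among the members named for their p in a comparison or for the study's lists, each followed in that comparison, directions turned for 4, all uncalled between STZ + insulin and STZ. Mrpl28 was 0.21 on BeadChip 1 alone and 0.032 without the 2 arrays of lowest weight, and ran from -0.1575 (without STZ 4) to 0.0425 (without STZ 2). Mrpl51 was 0.12 on BeadChip 2 alone and 0.11 with the lens covariate. Mrpl52 was 0.060 on BeadChip 2 alone, 0.0013 with the lens covariate and 0.019 without the 2 arrays of lowest weight, and ran from -0.119 (without STZ 1) to 0.024 (without STZ 2). Mrps33 was 0.0191 on BeadChip 1 alone and 0.0294 without the 2 arrays of lowest weight, and ran from -0.0644 (without STZ 3) to 0.0417 (without STZ 2). The causes were not tested. With 5 STZ arrays and standard errors near 0.09, differences under about 1.2-fold in single members lie close to what these arrays can show.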

Other observations

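Mrps35, a small subunit protein, had low signals on single arrays of both groups given streptozotocin. It stood at 9.72 on STZ 4, 9.87 on STZ + insulin 3 and 9.74 on STZ + insulin 7, whereas the controls ran from 10.21 to 10.50. The other STZ arrays were at 10.41, 10.46, 10.23 and 10.30. Between STZ + insulin and Control it differed by -0.21 (limma, standard error 0.12, adjusted p = 0.693). Mrps2, another small subunit protein, was spread in every group, from 6.44 to 7.22 in Control, from 6.22 to 7.26 in STZ and from 6.29 to 7.18 in STZ + insulin, and its differences were -0.17, -0.021 and 0.14 in the 3 comparisons (limma, adjusted p = 0.662, 0.995 and 0.674).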
